A study of Macaca fascicularis with 9 samples.

Results

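Cluster 4 is the main population of oligodendrocyte precursor cells (OPCs) among nuclei from the thalamus of cynomolgus monkeys. Its members are the nuclei that the deposited annotation names OPCs and places in cluster 4, which are 5580 of 79994 nuclei. They made up most of the 6233 nuclei named OPCs, the others being 366 nuclei in cluster 13 and 287 in cluster 14. The nuclei came from 9 female animals in 3 groups of 3, and each animal gave 1 droplet library. The saline group received 4 intravenous doses of saline. The ASO group was given an antisense oligonucleotide (ASO) that directs the breakdown of MALAT1 RNA, a long non-coding RNA that is abundant in nuclei, as 1 intrathecal dose of 4 mg. The OTV group was given OTV:MALAT1 by vein, 4 doses of 30 mpk, where OTV is an oligonucleotide carrier that binds the transferrin receptor. All tissue dates from 2 weeks after the final dose. Route, number of doses and compound differ together between the treated groups, and saline was given by vein only. The labels used here give no ages.

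OPCs are the dividing glial progenitors of the adult brain, spread through grey and white matter, and they give rise to oligodendrocytes, which make myelin. Platelet-derived growth factor, acting on PDGFRA, keeps them in the precursor state, and they carry chondroitin sulphate proteoglycans such as CSPG4 (also called NG2) and VCAN (versican). When they differentiate they lose PDGFRA, pass through a short-lived stage marked by GPR17, BCAS1 and ENPP6, and switch on MYRF, the transcription factor that drives myelin genes.

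Values below are UMI counts (unique molecular identifiers, 1 per captured RNA molecule) summed over the cluster 4 nuclei of an animal. Levels are given in counts-per-million units (CPM), relative to all UMIs of those nuclei, and changes as log2 fold changes from edgeR. Cluster 4 held 1572397 to 8404765 UMIs per animal. The smallest sums were those of OTV replicates 3 and 2, with 1572397 and 1951793. Median UMIs per cluster 4 nucleus were between 5960.5 and 10385 in 8 animals and 2724.5 in OTV replicate 3. Mitochondrial and regional transcripts also moved between animals. The summed level of the 13 mitochondrially encoded transcripts in cluster 4 was 188, 118 and 44.1 CPM in saline, 3.11, 6.42 and 3.01 CPM in ASO and 978, 434 and 895 CPM in OTV. PDE10A, a phosphodiesterase of striatal neurons, which lie outside the thalamus, was at 1999, 354 and 6511 CPM in saline, 264, 1234 and 4383 CPM in ASO and 358, 254 and 503 CPM in OTV in the neurons of the same animals. Those neurons numbered 364, 23 and 527 nuclei in saline, 18, 17 and 467 in ASO and 98, 112 and 88 in OTV. The part of mitochondrial or regional transcripts in the results below was not tested, except where a fit with a regional term is given. Of the cluster 4 barcodes, 5 also occur in cluster 4 of another animal.

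The defining markers were present in cluster 4 of every animal. PDGFRA was at 377, 296 and 353 CPM in saline, 263, 283 and 289 CPM in ASO and 305, 334 and 273 CPM in OTV, against 0.746 to 7.72 CPM in all other nuclei of the same animals. VCAN ran from 1189 to 1920 CPM over the 9 animals, against 10.3 to 49.9 CPM elsewhere. CSPG4 ran from 29.5 to 149 CPM, against 0.234 to 1.30 CPM elsewhere. No animal's level of these 3 genes in other nuclei came near the lowest level in cluster 4.

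At the level of nuclei, 4491 of the 5580 held at least 1 PDGFRA UMI. Thinned to 1000 UMIs each, so that depth is equal, 25.3% of cluster 4 nuclei held PDGFRA, against 0.140% of oligodendrocytes and 0.272% of astrocytes. The same shares were 72.8% for VCAN, with 0.835% of oligodendrocytes, and 5.73% for CSPG4, with 0.0406% of oligodendrocytes. The unthinned shares were 80.5%, 98.2% and 29.0% in cluster 4, at median depths of 7475.5 UMIs in cluster 4 and 6016 in oligodendrocytes. Markers of other cells were rare. AQP4, the astrocyte water channel, was in 2.19% of thinned cluster 4 nuclei and in 32.4% of astrocytes. CSF1R, the myeloid growth factor receptor, was in 0.842%, close to its 0.596% in oligodendrocytes. The myelin gene MOBP was in 1.99% of cluster 4 nuclei and in 36.3% of oligodendrocytes, and the 2.79% of astrocytes with it, which should lack it, put the share in cluster 4 at background. MKI67 or TOP2A, genes of dividing cells, were found in 0.323% of cluster 4 nuclei, and the 0.278% of oligodendrocytes and 0.295% of astrocytes with them put this share, too, at background.

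The genes that set cluster 4 apart were ranked by the smallest of the 9 within-animal log2 ratios of cluster 4 to all other nuclei, among the 2710 features at 50 CPM or more in cluster 4 of every animal. The nuclei were clustered on these genes, so the ratios describe the cluster and carry no test. At the head of the ranking were SUSD5, a sushi domain protein, and PDGFRA, whose smallest log2 ratios were 5.63 and 5.52. Genes of the matrix and the cell surface among the first 20 include VCAN, the brain matrix glycoprotein TNR, the phosphatase PTPRZ1, which carries chondroitin sulphate, the heparan sulphate editing enzyme SULF2, the fibrillin FBN2 and the membrane metalloproteinase MMP16. Median levels were 4716 CPM for PTPRZ1 and 4079 CPM for PCDH15, a protocadherin.

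Other genes of the ranking were NTN1 (netrin 1, a guidance cue), C1QL1 (a secreted C1q-like ligand), SEZ6L, MEGF11 and FERMT1, an integrin adaptor. CA10 and CA8, carbonic anhydrase-related proteins without enzyme activity, had median levels of 2033 and 271 CPM. CREB3L1 and MYT1, both transcription factors, and CCND1 (cyclin D1) had medians of 79.5, 78.8 and 104 CPM. ZDHHC22, a palmitoyltransferase, completes the 20. The last gene inside the ranking, PTPRZ1, had a smallest log2 ratio of 3.76, and the first outside it were STK32A with 3.73 and FXYD6 with 3.71. CSPG4 was not ranked, because its lowest level of 29.5 CPM is under the minimum, although its smallest log2 ratio was 4.99. Saline replicate 3 gave the smallest ratio for 12 of the 20 genes, and the other nuclei of that animal also held the most OPC identity transcripts, 6530 CPM summed over 24 genes against 1781 to 3610 CPM in the other 8 animals. Clusters 13 and 14 count among those other nuclei.

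**Figure D1:**
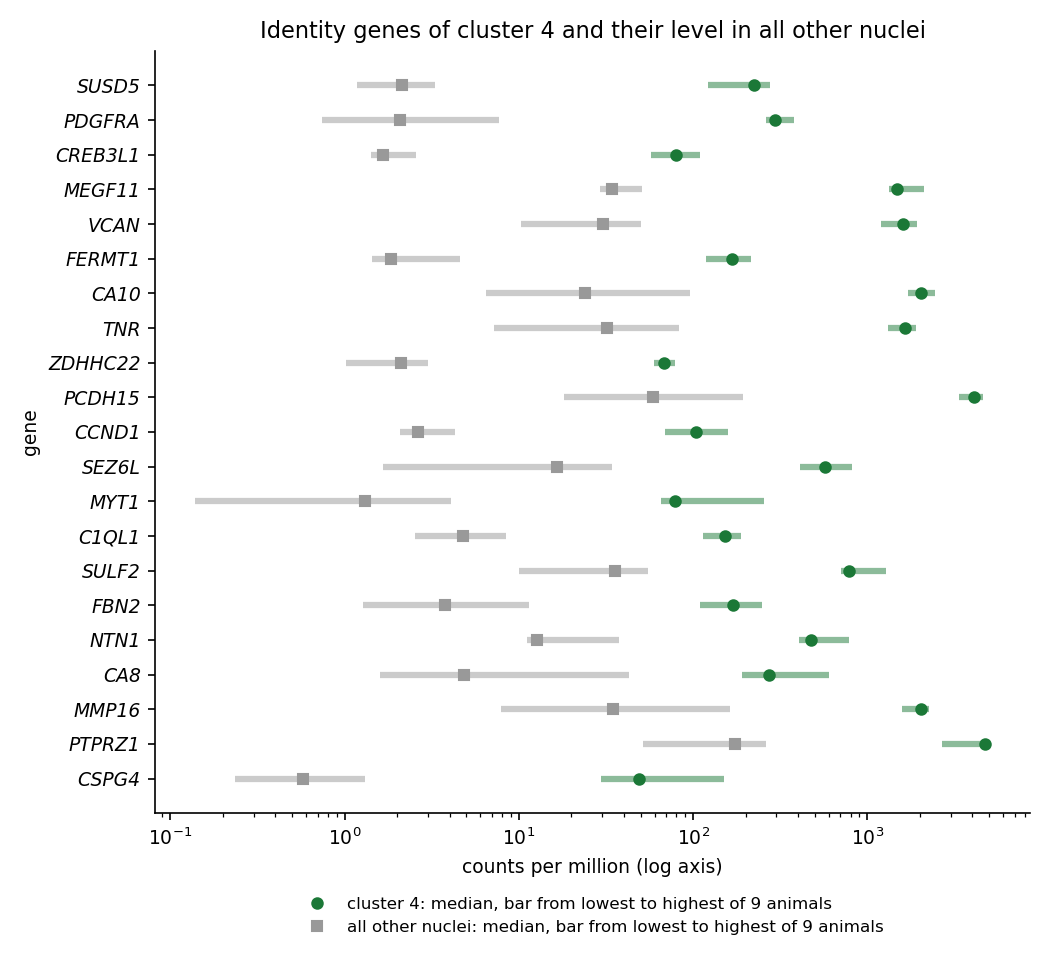
Level of the 20 highest ranked identity genes and of CSPG4 in cluster 4 (green) and in all other nuclei (grey), in CPM on a log axis. Points are medians and bars run from the lowest to the highest of 9 animals, and for each of the 21 genes the bars of the 2 compartments do not meet.

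Several well-known lineage genes were not distinctive of cluster 4. SOX10, a transcription factor of the whole lineage, had a median of 150 CPM in cluster 4 and 143 CPM in oligodendrocytes. NKX2-2 had medians of 147 CPM in cluster 4 and 149 CPM in all other nuclei. OLIG2 was higher, with 146 CPM against 21.1 CPM. NCAN (neurocan) was at a median of 9.40 CPM in cluster 4 and 13.4 CPM elsewhere.

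The OPC clusters differed in their stage genes, given here as values without a test. Cluster 13 had little PDGFRA, a median of 18 CPM, and much of the genes of differentiating precursors. BCAS1 had a median of 8320 CPM there and 713 CPM in cluster 4, ENPP6 had 1281 and 24.6 CPM, and TCF7L2, a Wnt pathway transcription factor, had 3161 and 352 CPM. GPR17 was at 242 CPM in cluster 13 and 32.2 CPM in cluster 4, and MYRF at 317 and 22.3 CPM. VCAN and TNR did not separate them, with medians of 1277 and 1497 CPM in cluster 13 beside 1603 and 1635 CPM in cluster 4. Cluster 14, which was found in 8 animals and had 6 to 103 nuclei in those, resembled cluster 4, with medians of 406 CPM for PDGFRA, 603 CPM for BCAS1 and 22 CPM for ENPP6. Cluster 4 had high PDGFRA and low ENPP6 in all 9 animals, and its summed level of 17 differentiation genes ran from 3683 to 4415 CPM.

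**Figure D2:**
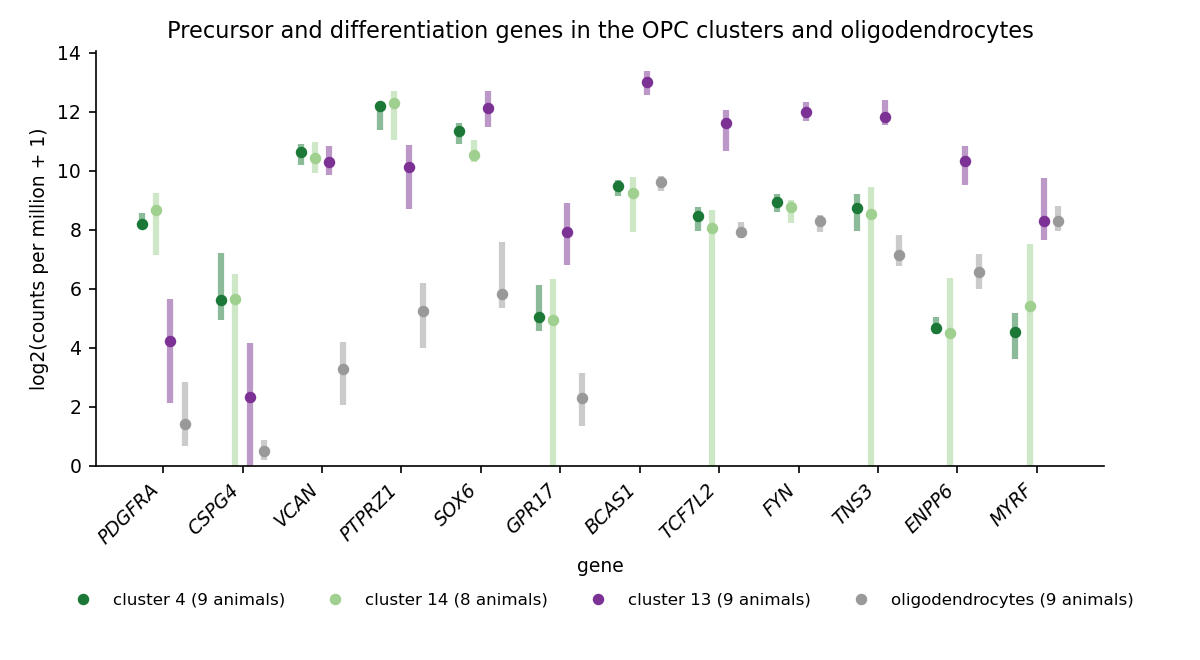
Precursor genes (left) and differentiation genes (right) in cluster 4, OPC clusters 14 and 13 and oligodendrocytes, as log2 of CPM plus 1, where points are medians over animals and bars run from the lowest to the highest animal. PDGFRA was at medians of 296, 406, 18 and 1.68 CPM in that order, and BCAS1 was highest in cluster 13.

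No change of the share of cluster 4 among all nuclei was detected between the groups. It was 6.69%, 7.54% and 17.5% of all nuclei in saline, 7.06%, 3.86% and 8.20% in ASO and 6.02%, 7.98% and 6.36% in OTV. Saline replicate 3, which had the fewest nuclei (2956), stood apart, and the groups overlapped. A 2-sided exact permutation test over the 280 partitions of the 9 animals into groups gave p = 0.5 on the log-odds of the share, where the smallest possible p is 0.00357. Taken among nuclei outside the oligodendrocytes, the share was 32.3%, 32.5% and 27.5% in saline, 37.8%, 35.3% and 31.0% in ASO and 23.5%, 29.6% and 24.0% in OTV, with an exact p of 0.0464. All ASO values lie above all OTV values on that scale. A pair of groups has 10 splits, so its exact p cannot go below 0.1, and it was 0.1 for OTV against ASO.

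MALAT1, the target of both compounds, made up a smaller part of the RNA in OPCs than in other nuclei of every animal. In cluster 4 it was 4.62%, 4.28% and 3.21% of UMIs in saline, 3.45%, 3.55% and 3.79% in ASO and 3.00%, 2.58% and 2.85% in OTV. Every OTV animal was below every saline and every ASO animal, whereas saline replicate 3 lay below all ASO animals. Group means were 4.04% ± 0.734 in saline, 3.60% ± 0.175 in ASO and 2.81% ± 0.213 in OTV (SD, n = 3 animals each), so that 89.0% of the saline level remained after ASO and 69.6% after OTV. Counting error is small beside this, since the Wilson 95% intervals reach at most 0.0260 percentage points to either side, and they cover counting error only.

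In edgeR's quasi-likelihood test MALAT1 fell in OTV against saline, by 0.48 on the log2 scale (SE 0.14, Benjamini-Hochberg adjusted p = 0.0297). The ASO difference from saline was -0.22 (SE 0.14) with an adjusted p of 0.691 in the same edgeR fit and ran from -0.35 to -0.10 with 1 animal left out, and OTV against ASO gave -0.27 (SE 0.14) with an edgeR adjusted p of 0.180. Permuting the animals exactly over the 3 groups gave p = 0.05 for the share (2-sided). The OTV call rests on few animals. It was lost without OTV replicate 2 (-0.45), OTV replicate 3 (-0.49), saline replicate 1 (-0.37) or saline replicate 2 (-0.46), when clusters 13 and 14 were added (-0.43) and with the regional term (-0.51), with edgeR adjusted p from 0.00376 to 0.131 over the 17 alternatives. Without saline replicate 3 the exact p was 0.00357, the smallest possible.

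In all other nuclei MALAT1 was higher, at a mean of 6.21% ± 0.392 in saline, 4.87% ± 0.841 in ASO and 3.44% ± 0.380 in OTV (SD, n = 3). Oligodendrocytes had 6.59% ± 0.245, 4.89% ± 0.761 and 3.48% ± 0.462. Under OTV the levels of cluster 4 and of the rest thus lay closer together than in saline. The interaction of compartment and treatment with animal as a block did not call this difference for MALAT1. Its log2 size for OTV against saline was 0.32 (SE 0.32) with an edgeR adjusted p of 0.904, which leaves a wide range of differences possible.

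**Figure D3:**
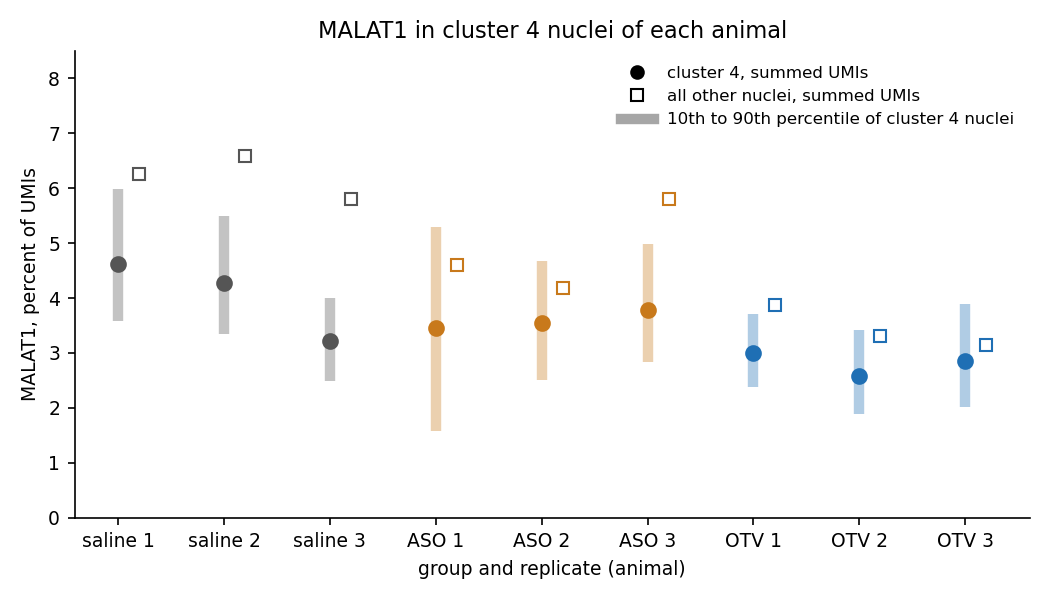
MALAT1 as a percent of UMIs in cluster 4 of each animal (filled circles, summed UMIs), with the 10th to 90th percentile of single nuclei (bars), and in all other nuclei of the animal (open squares). The OTV animals lie at 2.58% to 3.00%, below all saline and ASO animals, and ASO replicate 1 has the widest bar.

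The spread of MALAT1 between nuclei of an animal also differed. Between the 10th and the 90th percentile of cluster 4 nuclei, MALAT1 ran from 1.57% to 5.29% of UMIs in ASO replicate 1, while it ran from 3.58% to 5.99% in saline replicate 1 and from 2.38% to 3.70% in OTV replicate 1. The coefficient of variation left after counting noise was subtracted, at 1000 UMIs per nucleus, was 0.200, 0.181 and 0.190 in saline, 0.407, 0.240 and 0.237 in ASO and 0.157, 0.226 and 0.225 in OTV. The 3 ASO values were the highest of the 9. Permuted exactly over the 3 groups, this gave p = 0.0357 (2-sided). The exact p was 0.0250 without ASO replicate 2 and 0.0214 without ASO replicate 3, but 0.232 without ASO replicate 1, 0.171, 0.207 and 0.193 without saline replicates 1, 2 and 3 and 0.1, 0.121 and 0.132 without OTV replicates 1, 2 and 3. At 500 and 2000 UMIs it was 0.0679 and 0.0714.

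Low nuclei were common in OTV. Below 2.92% of UMIs, the 10th percentile of saline cluster 4 nuclei, lay 3.17%, 3.12% and 31.1% of nuclei in saline, 31.8%, 19.4% and 12.5% in ASO and 46.6%, 71.1% and 52.9% in OTV. The OTV animals did not overlap the others, and saline replicate 3 was level with ASO replicate 1. No cluster 4 nucleus of any animal was without MALAT1.

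Few genes were called in OPCs after ASO, and their number moved widely with the setting. Of 14617 genes tested, 38 were called in ASO against saline at a Benjamini-Hochberg adjusted p under 0.05 in edgeR's quasi-likelihood test, which is 0.260% of the genes, with 19 higher (0.130%) and 19 lower (0.130%). At an unadjusted p under 0.05 there were 1387. The count was 187 with the DESeq2 Wald test, 95 with no filter on low counts and 71 with the regional term. Rising genes with a symbol included SGCB (beta-sarcoglycan), which went from 28.7, 36.8 and 31.9 CPM in saline to 69.0, 69.6 and 64.2 CPM in ASO (log2 change 1.01, SE 0.14, edgeR adjusted p = 0.0214). CBFB, the partner of RUNX transcription factors, went from 101, 92.1 and 96.6 to 166, 171 and 168 CPM. The groups did not overlap for either gene, which the rule that named them requires. ECHDC2, SFRP4 (a secreted Wnt modulator), GABRR3 (a GABA receptor subunit), TRPV3 (a cation channel), AIFM2 and AGBL3 also rose, by 1.02 to 3.91 on the log2 scale. The largest of these changes, that of GABRR3, starts from 8 UMIs in the saline animals together, and AIFM2 had 10. ECHDC2, GABRR3 and AIFM2 were also called higher in OTV against saline, by 0.88, 3.87 and 1.78.

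Among the falling genes TTF1, the termination factor of ribosomal RNA transcription, had the smallest p. It was at 73.3, 82.9 and 80.0 CPM in saline, 42.4, 41.7 and 44.0 CPM in ASO and 70.5, 62.0 and 68.7 CPM in OTV (ASO log2 change -0.93, SE 0.11, edgeR adjusted p = 0.00586). PDE3A, a phosphodiesterase of cyclic nucleotides, fell from 234, 231 and 205 to 118, 116 and 86.1 CPM, and the Ras-like GTPase RIT2 from 280, 331 and 188 to 130, 114 and 110 CPM. HSD17B6, FAM186A and SANBR fell too. The other 4 of the 10 named are the mitochondrial transcripts ND1, ND3, ND5 and COX1. These are 4 of 12 tested, beside 0.130% of all genes called lower, and ND3 and ND5 were at 0 in all ASO animals. No member of the other lists, from growth factor receptors to interferon genes, was called for ASO against saline, beside 0.260% of all genes. At that share a count of 0 in lists this short says little. The 24 OPC identity genes had a median log2 change of 0.01 beside 0.01 over all genes tested. None of the 19 calls that the naming rule gave was kept under all 17 alternatives, and the number of calls was 2 without saline replicate 2, 9 without saline replicate 1, 10 without ASO replicate 1, 15 without ASO replicate 2 and 25 without OTV replicate 2.

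OTV changed many more. In OTV against saline 2953 genes were called in the edgeR test, 20.2% of those tested, with 1333 higher (9.12%) and 1620 lower (11.1%). The falls were larger, with 1190 of the lower and 450 of the higher calls past 1 on the log2 scale. The smallest p among the falling genes was that of ACADS, a mitochondrial enzyme of short-chain fatty acid oxidation. It was at 231, 238 and 172 CPM in saline, 280, 198 and 288 CPM in ASO and 33.7, 36.4 and 35 CPM in OTV (OTV log2 change -2.58, SE 0.17, edgeR adjusted p = 1.75e-05). The OTV animals were almost equal and far below the rest. MCM7, a subunit of the replicative helicase, fell from 110, 120 and 104 to 32.9, 26.6 and 24.8 CPM, and RASGRP1, a Ras exchange factor, from 208, 172 and 197 to 50.2, 57.9 and 53.4 CPM. DNAH14 (an axonemal dynein), NKIRAS1, IRGC, TM6SF1, MCMDC2 and TTR (transthyretin) fell by 1.84 to 3.00 on the log2 scale. The rule that named these genes takes only those without overlap between the OTV and saline animals. Depth moves with these groups, since 2 OTV animals have the smallest sums, and with all animals thinned to the smallest sum there were 1804 calls and 1656 of the 2953 were kept. Without saline replicate 1 there were 1849. With a term for the regional score, a measure of telencephalic against other genes in astrocytes, 2003 of the 2953 were kept.

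The gene with the smallest p among the rising ones was SLC24A2, an exchanger of sodium for calcium and potassium, at 26.5, 35.5 and 42.3 CPM in saline and 113, 131 and 128 CPM in OTV (log2 change 1.88, SE 0.17, edgeR adjusted p = 7.32e-05). KAT2A, a histone acetyltransferase, went from 46.7, 59.1 and 51.5 to 135, 127 and 134 CPM. MCF2L, a guanine nucleotide exchange factor, went from 113, 131 and 112 to 231, 230 and 213 CPM. In all 3 the OTV animals lie above every saline animal, as the naming rule requires, and also above every ASO animal. TMEM259, SNX22 (a sorting nexin), MAN2A1 (a Golgi mannosidase), TMTC2 and PCBP4 (an RNA-binding protein) rose by 1.06 to 1.39. SLC24A2, MAN2A1 and TMTC2 had higher levels in oligodendrocytes, with saline means of 1632, 1154 and 3499 CPM there and 34.7, 64.4 and 125 CPM in cluster 4. The part of oligodendrocyte transcripts in their rises was not tested, and the summed oligodendrocyte markers of each animal are given below. KAT2A, MCF2L and SNX22 had lower saline means in oligodendrocytes, 28.0, 7.76 and 4.34 CPM, than in cluster 4, 52.4, 119 and 39.6 CPM. All 20 genes that the naming rule gave for this comparison kept their calls under each of the 17 alternatives. They were picked for the smallest p in these same animals, so this does not speak for the other calls. Of all 2953 calls, 1909 were kept without OTV replicate 3 and 1656 with equal totals.

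Single identity genes moved in either direction under OTV, and the receptor PDGFRA did not pass the test. PDGFRA had a log2 change of -0.13 (SE 0.12) with an edgeR adjusted p of 0.498, and VCAN one of -0.01 (SE 0.15). CSPG4 rose from 35.3, 29.5 and 36.2 CPM in saline to 67.6, 74.8 and 149 CPM in OTV, with 37.9, 53.6 and 48.8 CPM in ASO (OTV log2 change 1.54, SE 0.28, edgeR adjusted p = 0.00370). All 3 OTV animals were above the other 6, and OTV replicate 3, the shallowest, was the highest. The share of thinned nuclei with CSPG4 was 3.86%, 2.42% and 4.06% in saline and 7.68%, 8.55% and 15.0% in OTV.

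Of the 20 top identity genes, 6 rose and 1 fell, beside 9.12% and 11.1% of all genes. MYT1, a zinc finger transcription factor of neural and oligodendrocyte progenitors, had the largest change, from 70.4, 65.0 and 78.8 CPM in saline to 162, 191 and 256 CPM in OTV (log2 change 1.53, SE 0.16, edgeR adjusted p = 0.000134), with 67.5 to 82.4 CPM in ASO. SULF2 rose from 763, 779 and 735 to 1275, 1235 and 989 CPM, and CREB3L1 from 66.6, 57.3 and 65.3 to 88.5, 95.8 and 109 CPM. NTN1, FBN2 and CA10 rose by 0.37 to 0.53. PTPRZ1 fell from 4806, 3866 and 4716 to 3631, 3103 and 2688 CPM (log2 change -0.47, SE 0.14, edgeR adjusted p = 0.0351), without overlap.

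In the wider list of 24 OPC identity genes, 2 rose (CSPG4 and CA10) and 3 fell, PTPRZ1, LUZP2 (-0.38) and the transcription factor SOX6 (-0.37), with a list median of -0.04 beside -0.01 over all genes. These 5 of 24 are close to the 20.2% of all genes called, so the count says nothing particular about the list. SOX10, OLIG2, TNR, PCDH15 and LHFPL3 were among the 19 that did not pass, with log2 changes from -0.10 to 0.26. The small changes are the least settled. The call for CA10 was lost under 13 of 17 alternatives, that for PTPRZ1 under 6 and that for LUZP2 under 5, and the number of called members in the list was 1 with the regional term, without OTV replicate 2 or without saline replicate 1, 2 without saline replicate 3, and 3 without ASO replicate 1, OTV replicate 1 or saline replicate 2. Among the top 20 it was 3 without saline replicate 1 or OTV replicate 2 and with the regional term, and 4 without ASO replicate 2, ASO replicate 3 or saline replicate 3.

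Members of the differentiation list that were called under OTV all rose. These were 6 of 16 tested, with a median of 0.33 for the list, beside 9.12% of all genes called higher. MYRF, the driver of myelin genes, was at 12.5, 11.3 and 15.3 CPM in saline, 12.4, 22.3 and 24.1 CPM in ASO and 33.7, 26.6 and 35.6 CPM in OTV (OTV log2 change 1.35, SE 0.26, edgeR adjusted p = 0.00415). Its thinned share of nuclei was 1.79%, 1.15% and 0.967% in saline and 3.92%, 3.29% and 4.94% in OTV in cluster 4, and 0.727%, 0.554% and 1.76% against 4.10%, 1.67% and 3.75% in astrocytes, which should lack it. Both kinds of nuclei thus held MYRF at low and similar shares that were higher in OTV for most animals, and whether the change belongs to the OPCs was not tested. SOX2, a progenitor transcription factor also needed for the step to oligodendrocytes, went from 36.1, 35.8 and 25.8 to 53.3, 55.8 and 68.0 CPM. NFASC, an adhesion protein of the axon-glia junction, went from 300, 314 and 259 to 435, 364 and 419 CPM. In these 3 genes the OTV and saline animals do not overlap, as in most called genes with a symbol. ITPR2 (an intracellular calcium channel), CNKSR3 and GPR37 rose by 0.44 to 0.82, and GPR37 overlapped between groups. CNKSR3 and GPR37 did not mark cluster 13, with medians of 32.0 and 15.4 CPM there beside 105 and 17.7 CPM in cluster 4. Their medians in oligodendrocytes were 240 and 254 CPM, and the part of oligodendrocyte transcripts in their rises was not tested. MYRF, SOX2, NFASC and ITPR2 had higher medians in cluster 13 than in cluster 4. The ITPR2 call was lost under 3 alternatives and that of SOX2 with the regional term.

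The stage genes themselves did not pass the test. GPR17 was at means of 44.4 ± 13.1 CPM in saline and 50.7 ± 21.0 CPM in OTV, BCAS1 at 640 ± 71.7 and 714 ± 132 CPM and ENPP6 at 26.5 ± 5.07 and 24.0 ± 2.81 CPM (SD, n = 3). The number of called members was 3 with the regional term, 4 with no filter on low counts, and 10 when clusters 13 and 14 were added.

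Among 11 genes of mature oligodendrocytes 3 rose under OTV and none fell, beside 9.12% of all genes called higher and 11.1% called lower. MOBP, a myelin protein, was at 6.58, 9.40 and 12.3 CPM in saline, 9.76, 13.8 and 9.20 CPM in ASO and 31.0, 33.8 and 83.3 CPM in OTV (OTV log2 change 2.41, SE 0.39, edgeR adjusted p = 0.00205). Its thinned share of nuclei was 0.964%, 1.04% and 1.35% in saline and 2.39%, 3.95% and 8.85% in OTV in cluster 4, and 0.364%, 0.775% and 1.41% against 3.28%, 3.33% and 8.12% in astrocytes. The shares in cluster 4 were close to those of astrocytes in the OTV animals, and whether the MOBP change belongs to the OPCs was not tested. ST18, a transcription factor related to MYT1, rose from 16.0, 14 and 34.3 to 60.4, 65.6 and 72.5 CPM, and MOG by 1.00, a call lost without OTV replicate 3. In oligodendrocytes themselves the same contrast gave 0.49, 0.03 and -0.39 for MOBP, ST18 and MOG, none of them called, while MYRF rose there by 0.71. The summed level of the 11 genes in cluster 4 was 504, 554 and 371 CPM in saline, 654, 1034 and 881 CPM in ASO and 860, 542 and 943 CPM in OTV, against 2234 to 10667 CPM in all other nuclei. The sum was above every saline animal in all 3 ASO animals and in 2 of 3 OTV animals, and its part in the changes of MYRF, MOBP, ST18 and MOG was not tested. In ASO none of these 4 genes was called, beside 0.260% of all genes.

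**Figure D4:**
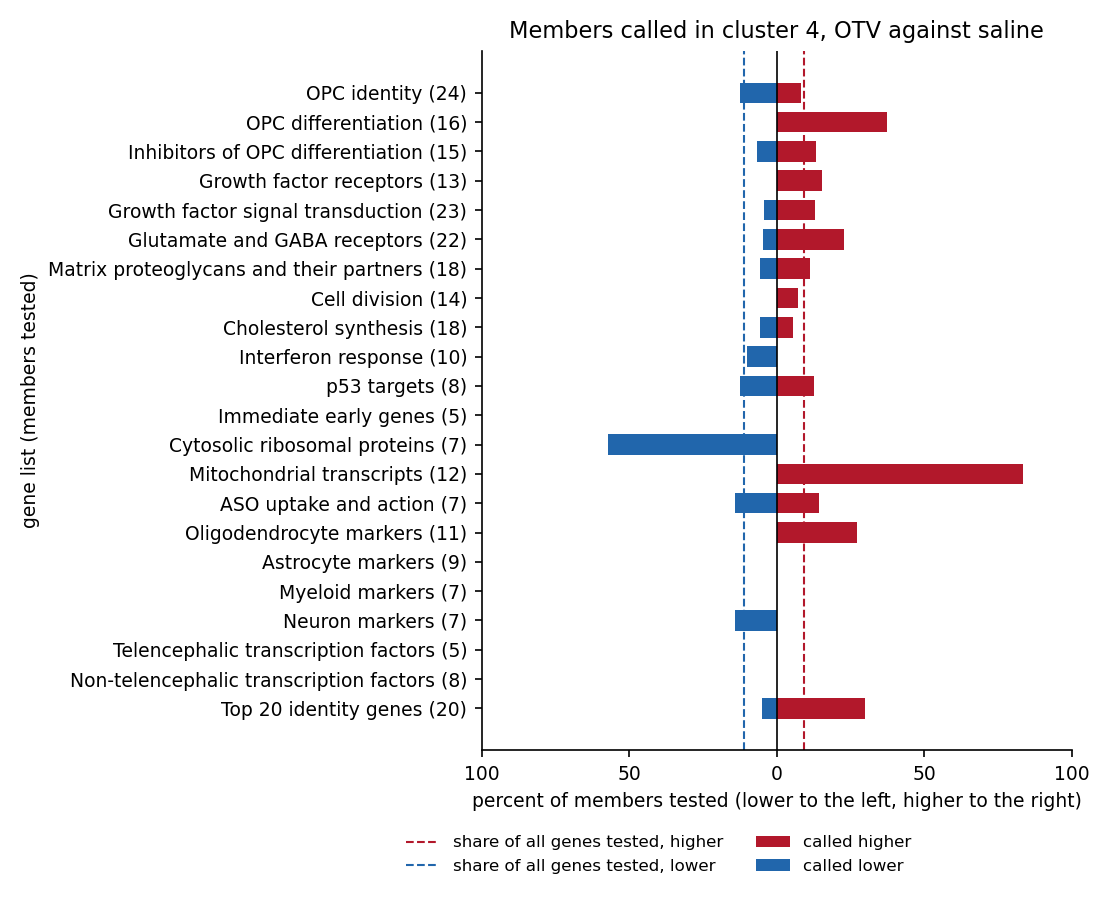
Share of the tested members of each gene list called higher (red, right) or lower (blue, left) in cluster 4 for OTV against saline, in percent, with the number of tested members in brackets. Dashed lines mark the share of all 14617 genes called higher (9.12%) and lower (11.1%), and bars at or inside the lines are no more than that background.

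Brakes on differentiation did not move together. LINGO1, a negative regulator of myelination, rose from 41.7, 47.0 and 35.6 to 65.1, 84.5 and 75.0 CPM (log2 change 0.88, SE 0.17, edgeR adjusted p = 0.00426), and the receptor NOTCH1 by 0.56. TCF4, a bHLH transcription factor, fell by 0.41, and 12 of the 15 tested did not pass, beside 20.2% of all genes called. The TCF4 call was lost under 6 of 17 alternatives, among them the regional term and each saline animal left out, and the NOTCH1 call under 3.

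Of 13 growth factor receptors 2 rose and none fell, beside 20.2% of all genes called, so the count is no more than that background. INSR, the insulin receptor, was at 148, 173 and 173 CPM in saline and 214, 241 and 271 CPM in OTV (log2 change 0.59, SE 0.11, edgeR adjusted p = 0.00387). FGFR2 rose by 0.82, a call lost under 5 of 17 alternatives. Its saline mean was 656 CPM in oligodendrocytes and 29.1 CPM in cluster 4, and the part of oligodendrocyte transcripts in its rise was not tested. Downstream, TSC2, the brake on mTOR, rose from 34.3, 39.4 and 32.8 to 66.2, 67.6 and 98.6 CPM, the mTOR partner RPTOR by 0.65 and the kinase MAP2K2 by 0.65. In all, 3 of 23 signal transducers tested rose, beside 9.12% of all genes.

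Receptors for glutamate and GABA, through which OPCs receive synaptic input from neurons, had 5 rises and 1 fall among 22, beside 9.12% of all genes called higher and 11.1% called lower. GRIK5, a kainate receptor subunit, was at 76.1, 78.3 and 73.3 CPM in saline, 85.1, 82.5 and 90.2 CPM in ASO and 110, 136 and 140 CPM in OTV (OTV log2 change 0.79, SE 0.11, edgeR adjusted p = 0.000647). The kainate subunits GRIK3 and GRIK4 rose by 0.53 and 0.49, GABRG3 by 0.91 and the NMDA receptor subunit GRIN2B by 0.33, while GRIK2 fell by 0.41. No OTV animal overlapped saline in any of the 6. The same held for 1056 rising and 755 falling genes among the 1854 called genes with a symbol, so it says nothing particular about these receptors. The GABRG3 call was lost under 6 of 17 alternatives, and the number of called members was 3 without OTV replicate 2 or saline replicate 1.

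GRIA4, an AMPA receptor subunit chosen after its values were seen, varied widely between the animals of the saline and ASO groups. It was at 2250, 2882 and 204 CPM in saline, 3505, 3724 and 1140 CPM in ASO and 2814, 2637 and 2690 CPM in OTV. The low animals, saline replicate 3 and ASO replicate 3, are those with the highest PDE10A in neurons.

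Of 22 cytosolic ribosomal protein genes listed, 7 have counts under their symbol and were tested, and 4 of these fell under OTV beside 11.1% of all genes, with RPS6 going from 173, 169 and 131 CPM in saline to 51.1, 46.6 and 44.5 CPM in OTV (log2 change -1.68, SE 0.14, edgeR adjusted p = 5.13e-05), beside 195, 158 and 203 CPM in ASO. RPLP0, RPLP1 and RPS12 fell by 1.36, 1.25 and 1.06, and RPL3, RPL13 and RPL15 did not pass. The count was 2 without OTV replicate 2, OTV replicate 3, saline replicate 1 or saline replicate 2. RPS6, RPS12 and RPLP0 were also called lower in oligodendrocytes.

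Mitochondrially encoded transcripts rose in the same animals. Of 12 tested 10 were higher, beside 9.12% of all genes, with COX3 at 34.7, 33.0 and 12 CPM in saline, 0.707, 2.21 and 1.59 CPM in ASO and 325, 129 and 303 CPM in OTV. COX1 rose by 2.78 (SE 0.36, edgeR adjusted p = 0.000448) and ND5 by 3.72 (SE 0.37, edgeR adjusted p = 0.000197). The order OTV above saline above ASO holds for the summed level in every animal, in cluster 4 and in all other nuclei alike, and mitochondrial RNA lies outside the nucleus.

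Interferon and stress genes showed no joint rise. Of the lists, 10 of 19 interferon genes, 8 of 15 p53 targets and 5 of 14 immediate early genes could be tested. None of the interferon or immediate early genes was called higher. Of 8 p53 targets TP53I3 fell and SESN2 rose, and of 14 cell division genes CENPE rose, beside 20.2% of all genes called. The SESN2 call was lost under 13 alternatives and kept under 4, and the CENPE call was lost under 7 and kept under 9. In cholesterol synthesis, which OPCs need for myelin, CYP51A1 fell by 0.88, while 16 of 18 genes did not pass. Among genes of ASO uptake and action LRP1, an endocytic receptor, rose from 376, 337 and 390 to 522, 552 and 607 CPM and RNASEH2C fell by 1.30. TFRC, the transferrin receptor, was at means of 30.2 ± 3.75 CPM in saline, 33.0 ± 5.61 CPM in ASO and 36.1 ± 1.77 CPM in OTV (SD, n = 3) and was not called. In the proteoglycan list SDC3 (1.41) and CSPG4 rose and PTPRZ1 (-0.47) fell, and 15 of 18 did not pass, so its share of calls is below the 20.2% of all genes. The calls were lost under 3 alternatives for SDC3, 6 for CYP51A1 and 2 for RNASEH2C.

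Apart from the oligodendrocyte markers above, 0 of 9 markers of astrocytes, 0 of 7 of myeloid cells and 0 of 3 of vessels were called, beside 20.2% of all genes, and in lists this short a count of 0 says little. Among 7 neuron markers SYT1 fell by 0.44, beside 20.2% of all genes called, and this call was lost under 6 of 17 alternatives, the regional term included. Of 5 telencephalic and 8 other regional transcription factors tested none was called, with list medians of -2.11 and 1.07. The summed neuron markers in cluster 4 were 1224 to 1675 CPM in saline, 1313 to 1459 CPM in ASO and 1033 to 1169 CPM in OTV, and their part in that fall was not tested.

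**Figure D5:**
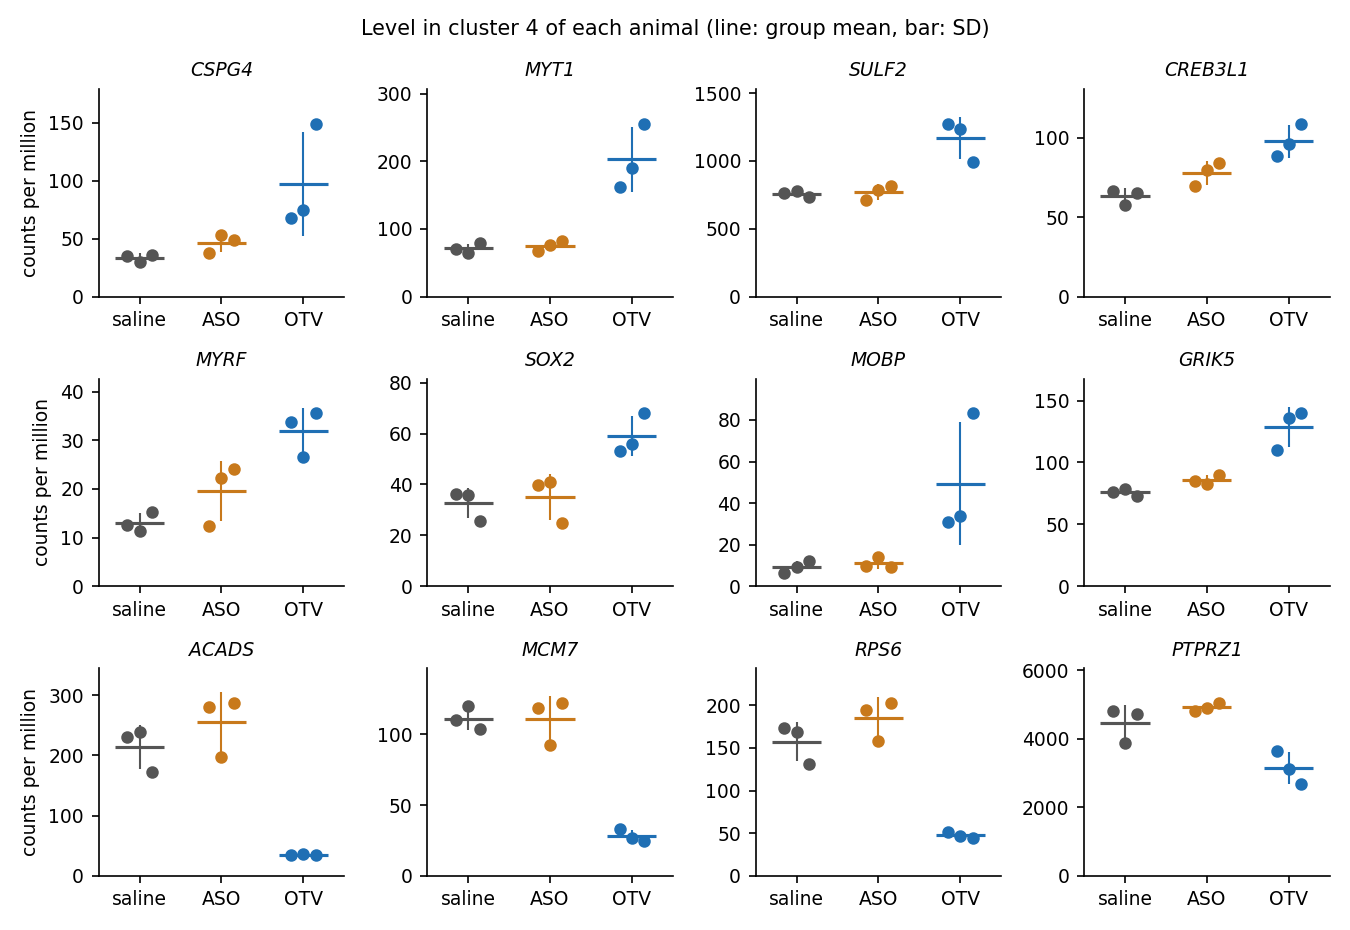
Level of 12 genes in cluster 4 of each animal, in CPM on linear axes from 0, with the group mean (line) and SD (bar), n = 3. CSPG4, MYT1, SULF2, CREB3L1, MYRF, SOX2, MOBP and GRIK5 are higher, and ACADS, MCM7, RPS6 and PTPRZ1 lower, in every OTV animal than in every saline animal.

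OTV and ASO differed from each other in OPCs more than either did from saline by number of calls. In OTV against ASO 3779 genes were called in the edgeR test, 25.9% of those tested, with 1741 higher (11.9%) and 2038 lower (13.9%). Both this contrast and OTV against saline use the same OTV animals. The 10 rising and 10 falling genes named by the rule include SLC24A2, KAT2A, TMEM259, SNX22 and MAN2A1 above and ACADS, DNAH14, IRGC, RPS6 and MCM7 below. SGCB, which had risen under ASO, was at 18.6, 16.9 and 14 CPM in OTV, below saline, and differed from ASO by -1.91 (SE 0.16, edgeR adjusted p = 2.17e-05). FGFR2 was at 15.1, 17.9 and 26.2 CPM in ASO and 37.6, 61.0 and 52.1 CPM in OTV (log2 difference 1.42, SE 0.25, edgeR adjusted p = 0.00200). TNS3, an adhesion gene of differentiating OPCs, was lowest in ASO, at 260, 250 and 342 CPM, against 423, 417 and 598 CPM in saline and 428, 497 and 488 CPM in OTV, and OTV exceeded ASO by 0.82 on the log2 scale. Without ASO replicate 1 there were 2464 calls.

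Few responses were particular to OPCs by a test of the difference itself. The interaction of compartment (cluster 4 or all other nuclei) and treatment was tested in edgeR for 18774 genes with animal as a block. ASO against saline gave 0 calls (0.00%), with 969 at an unadjusted p under 0.05. There were 4 calls (0.0213%) when OTV was set against saline and 21 (0.112%) when it was set against ASO. FBXL2, a substrate receptor of a ubiquitin ligase, kept its level in cluster 4, at 159, 155 and 133 CPM in saline and 127, 160 and 121 CPM in OTV. In all other nuclei its mean went from 145 to 33.0 CPM (difference in log2 change 1.95, SE 0.22, edgeR adjusted p = 0.0458). LRRTM3, a synaptic adhesion protein, had means of 872 and 764 CPM in cluster 4 and of 536 and 163 CPM elsewhere. In oligodendrocytes the mean of FBXL2 went from 146 to 28.9 CPM and that of LRRTM3 from 517 to 169 CPM. Whether other cell types or OPC clusters kept their level as cluster 4 did was not tested. LIMS2, an adaptor of integrin adhesions, went the other way, from 31.5, 27.5 and 45.7 to 16.7, 12.3 and 18.4 CPM in cluster 4, while its mean elsewhere was 8.93 CPM in saline and 14.7 CPM in OTV. The fourth call, ENSMFAG00000053680, has no symbol in the files.

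Leaving out 1 animal left 0 calls in 7 cases, 1 without OTV replicate 1 and 13 without saline replicate 3, which has the highest share of OPCs and the fewest nuclei. The 21 became 0 without any 1 of the ASO animals, OTV replicate 3 or saline replicate 1, 1 without OTV replicate 1 or OTV replicate 2, and 105 without saline replicate 3. No member of the gene lists had a called difference from all other nuclei in OTV or ASO against saline, beside 0.0213% and 0.00% of all genes.

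Set against oligodendrocytes alone, more responses differed, 37 of 16749 genes for ASO against saline (0.221%) and 95 for OTV against saline (0.567%). The genes that follow were chosen after their values were seen. Under ASO, GIPR, the receptor of a gut hormone, had a mean of 0.615 CPM in saline and 0.888 CPM in ASO in cluster 4, but 0.692 and 42.9 CPM in oligodendrocytes (difference -5.22, SE 0.64, edgeR adjusted p = 0.0125). COL9A1, a collagen of the OPC list, had means of 1182 and 964 CPM in cluster 4 and of 580 and 161 CPM in oligodendrocytes (difference 1.53, SE 0.18, edgeR adjusted p = 0.0115). NKX2-2 was at 144 and 153 CPM in cluster 4 and at 177 and 312 CPM in oligodendrocytes (difference -0.75, SE 0.11, edgeR adjusted p = 0.0407). Under OTV, ADGRB1, an adhesion receptor of the brain, rose from 60.1 to 170 CPM in cluster 4 and was at 1.77 and 1.42 CPM in oligodendrocytes. PIGH, an enzyme of GPI anchor synthesis, went from 33.1 to 19.5 CPM in cluster 4 and from 476 to 94.2 CPM in oligodendrocytes, a difference in log2 change of 1.55 (SE 0.21, edgeR adjusted p = 0.00856). NKAIN2, a gene abundant in oligodendrocytes, went from 106 to 306 CPM in cluster 4 and from 4716 to 4276 CPM there.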

How the data were processed

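Nuclei from 9 animals, sorted on DAPI and made into 10x droplet libraries per the labels' protocols, were analysed from raw UMI counts per feature and nucleus, which the authors deposited in 1 matrix with an annotation of cluster, cell type and animal. Per the submitters' processing notes, Cell Ranger 6.1.2 and Seurat 4 were used and the build named is GRCh38.p13, whereas the deposited features carry macaque Ensembl identifiers, so the reference behind the counts is not settled here. The deposited doublet score comes from a caller not given in the sources used here, and 0 deposited nuclei are called doublets. No doublets were removed here. The deposited percent of ribosomal UMIs was not used. The smallest nucleus held 1018 UMIs, and no nucleus was filtered out here. Of 29128 features 14235 have no symbol.

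Counts of cluster 4 were summed per animal and tested in edgeR 4.0.16 (R 4.3.3) with TMM scaling, its filter on low counts and a robust quasi-likelihood fit over all 9 animals, with Benjamini-Hochberg adjustment over all genes tested and a threshold of 0.05. Differences of response used sums of both compartments with animal as a block. Values per nucleus were computed in Python 3.11.15 with numpy 2.4.6, scipy 1.17.1 and pandas 2.3.3. The fits were tested on simulated data. The alternatives were DESeq2 1.42.0 and its size factors, no filter, fewer animals or nuclei, equal totals and a regional term. Replicates were numbered in accession order. The depth of each sum, from 1572397 UMIs upwards, limits low genes most, and intervals and floors cover counting error only. Named genes were the 4 given markers and target, the 20 identity genes, up to 10 rising and 10 falling calls per comparison with the smallest p and no overlap between groups, up to 4 called members per list, and the calls of the interaction. The members, lists and added counts per list were chosen with earlier results of these data known. No sequences were used. Some members of the lists are not reported here.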

Additional observations from a re-analysis of the deposited data

Results flagged for a closer look

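A handful of genes responded to OTV differently in cluster 4 and in all other nuclei by the interaction test with animal as a block (edgeR's quasi-likelihood test, Benjamini-Hochberg adjusted p = 0.0458 for each). Each value is the log2 change of OTV against saline in cluster 4 minus that in the other nuclei. It was 1.95 for FBXL2, 1.50 for LRRTM3, 2.57 for ENSMFAG00000053680, which has no symbol in the files, and -1.86 for LIMS2. The means behind the value of ENSMFAG00000053680 were 11.6 CPM in saline and 37.6 CPM in OTV in cluster 4 and 126 and 66.3 CPM in the other nuclei. For OTV against ASO 21 genes differed in this way, among them SLC7A14 with 3.31 and TMEM53 with 2.08. The counts depended on single animals, with 0 to 13 for OTV against saline and 0 to 105 for OTV against ASO when 1 animal was left out, the highest counts being those without saline replicate 3.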

How the results depend on the processing

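No paired analysis was possible because the labels carry no number that links animals of different groups. For the genes called in cluster 4, ASO against saline, the 38 became 187 with the DESeq2 Wald test, 95 with no filter on low counts, 71 with the term for the regional score, 12 with the 6 compared animals only, 17 when thinned to equal totals and 2 to 38 when 1 animal was left out. The genes called in cluster 4, OTV against saline, numbered 1804 when thinned to equal totals and 1849 to 2790 with 1 animal left out. The genes called in cluster 4, OTV against ASO, numbered 2394 when thinned to equal totals and 2464 to 3996 with 1 animal left out. The genes whose response differs between cluster 4 and all other nuclei, ASO against saline, numbered 2 with no filter, 37 with oligodendrocytes only as the other compartment and 0 to 1 with 1 animal left out. The corresponding numbers were 95 with oligodendrocytes and 0 to 13 for OTV against saline, and 344 and 0 to 105 for OTV against ASO. The log2 change of MALAT1 in cluster 4, OTV against saline, missed the threshold with all OPC nuclei (-0.43) and with the regional term (-0.51), and ran from -0.64 to -0.37 with 1 animal left out. The exact p of the MALAT1 share of UMIs in cluster 4 ran from 0.00357 to 0.143. That of the cluster 4 share of all nuclei was 0.0464 among nuclei outside the oligodendrocytes. That of the MALAT1 spread between cluster 4 nuclei was 0.0679 at 500 UMIs, 0.0714 at 2000 UMIs and 0.0214 to 0.232 with 1 animal left out. For these results the cause was not tested, apart from the smaller numbers of UMIs or animals that thinning and leaving out bring by construction. Of the named calls, 0 of 19 for ASO against saline, 46 of 71 for OTV against saline and 52 of 65 for OTV against ASO were kept under every alternative, and 0 changed direction. Many of the named calls were picked for a small p in these same animals, so these counts do not speak for all calls.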
